A study of Homo sapiens with 18 samples.

Results

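The response of U2OS cells to Nutlin-3a after knockdown of RFXANK was derived for 25116 genes, of 26702 genes in all tables of the series. Nutlin-3a was not compared with DMSO in siRFXANK cells in any table used here. For each gene, the log2 fold change of siControl cells between Nutlin-3a and DMSO was therefore added to the log2 ratio of siRFXANK over siControl cells in Nutlin-3a, and the same ratio in DMSO was subtracted. The siControl libraries drop out of this sum, and the value compares siRFXANK samples in Nutlin-3a with siRFXANK samples in DMSO. Every gene in the 3 tables was a member, whatever its change. The comparisons below ask which genes respond to Nutlin-3a when RFXANK is reduced, and where that response differs from the responses of siControl and siANKRA2 cells.

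U2OS is an osteosarcoma cell line with wild-type p53, labelled wild-type in all groups. The cells received siControl, siANKRA2 or siRFXANK and then 10 µM Nutlin-3a or the solvent DMSO for 24 h, and polyadenylated RNA was sequenced. Each of the 6 groups held 3 samples, 18 in all, with 1 siRNA label per target. Nothing in the labels says that the samples of a group were separate cultures, so p-values may measure technical spread only. The siRFXANK samples were registered apart from the other 12 and had no siControl samples of their own. A batch difference between the sets drops out of the derived response, but a difference between the DMSO and the Nutlin-3a libraries of the siRFXANK set does not. From the differences between the siRFXANK response and those of siControl and siANKRA2 cells, it drops out only where it is alike in DMSO and Nutlin-3a. Otherwise knockdown and set cannot be told apart in these differences.

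Nutlin-3a occupies the pocket of MDM2 that binds p53, so that p53 escapes degradation and activates its target genes. Among these targets is CDKN1A, whose product p21 inhibits cyclin-dependent kinases. The pocket proteins then assemble the DREAM complex with E2F4, which represses genes of DNA replication through E2F sites and genes of mitosis through the cell cycle homology region, TTTGAA. RFXANK is an ankyrin repeat protein that joins RFX5 and RFXAP in the complex at promoters of HLA class II genes. RFXANK and its paralogue ANKRA2 also bind RFX7, a transcription factor downstream of p53.

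The elements of these pathways are given here for genes whose response follows, in promoter sequences of RefSeq on GRCh38.p14. The first pair holds p53 sites in capitals, each with 2 mismatches to the p53 consensus. The site of MDM2 at chr12:68808918-68808947 (plus strand) ends 74 bases before a start, and the site of FAS at chr10:88991304-88991333 (plus strand) ends 102 bases before it.
MDM2: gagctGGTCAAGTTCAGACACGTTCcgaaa
FAS: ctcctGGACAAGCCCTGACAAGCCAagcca
The second pair gives the 100 bases before the start of E2F1 (chr20:33686386-33686485, minus strand) and E2F2 (chr1:23531234-23531333, minus strand), with the E2F motif TTTNGCGC in capitals. In E2F2, 2 matches on opposite strands overlap.
E2F1: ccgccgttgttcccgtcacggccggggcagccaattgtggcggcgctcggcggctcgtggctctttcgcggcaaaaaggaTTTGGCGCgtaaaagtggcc
E2F2: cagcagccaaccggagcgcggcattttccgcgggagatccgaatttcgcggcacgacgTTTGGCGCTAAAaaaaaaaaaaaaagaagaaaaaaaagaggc
The third pair gives the 100 bases before the start of CCNB2 (chr15:59105046-59105145, plus strand) and PLK1 (chr16:23678789-23678888, plus strand), with TTTGAA in capitals. The motif ends 23 bases before the start in both.
CCNB2: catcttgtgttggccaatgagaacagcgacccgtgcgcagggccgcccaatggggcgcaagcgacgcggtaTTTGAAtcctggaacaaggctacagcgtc
PLK1: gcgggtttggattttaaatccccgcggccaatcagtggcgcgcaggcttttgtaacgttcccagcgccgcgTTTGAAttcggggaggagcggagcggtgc

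Over the 250 bases before each start, searched on both strands, TTTGAA was present in 19 of 36 promoter entries of the G2/M and mitosis list, 1 of 34 of the G1/S and DNA replication list and 13.3% of all 35116 entries. TTTNGCGC was present in 8 of 34 G1/S entries, 1 of 36 G2/M entries and 1.51% of all entries. CCAAT, the motif of NF-Y, was present in 24 of 34 G1/S entries, 27 of 36 G2/M entries, 17 of 25 entries of RFX7 target genes and 32.0% of all. GTTGCCATG, a form of the X-box, was present in 0 of 25 RFX7 target entries and 0.746% of all. At so low a share 0 of 25 says little, and other forms of the X-box were not searched. A p53 site was present in 3 of 52 entries of the p53 target lists (FAS, AEN and PANK1), in MDM2 and in 0.242% of all. Only adjoining half-sites without a spacer and with at most 2 mismatches were searched. Sites with a spacer or outside the window would be missed, so an entry without a match may still have a p53 site. A match describes the letters of the window and does not show binding.

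RFXANK itself, encoded at chr19:19192229-19201869 on the plus strand of hg38, was the first check of the libraries. Values per library were not analysed here, because the tables hold comparisons only. The mean of each group of 3 was recovered from the fold changes and standard errors as an approximate normalised count, and all levels below are such means. RFXANK was at 826 in siControl cells with DMSO and 952 with Nutlin-3a, at 106 and 106 in siRFXANK cells, and at 638 and 703 in siANKRA2 cells. Both siRFXANK groups were thus below all other groups. That direction follows from reading the tables as siRFXANK over siControl. Standard errors grow as counts fall, and for genes with a mean between 10 and 100 and a log2 ratio of at least 1 the reading left a median gap of 0.857% to the deposited standard error in DMSO (821 genes) and 0.685% in Nutlin-3a (704 genes), against 29.04% and 26.48% for the opposite reading. Within siRFXANK cells, RFXANK had a response of 0.00 (log2, SE 0.13, 95% interval -0.25 to 0.25).

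The cells carried mesenchymal transcripts, with authors' mean normalised counts of 55026 for VIM, 64042 for COL1A1 and 29456 for SPARC. These are some of the 11 osteoblast and mesenchymal markers listed. Of the others, ALPL was far lower (levels below) and IBSP was not among the genes tested. The label calls the cell type epithelial. Of the 8 epithelial markers, the keratins KRT8 (21456) and KRT18 (12960.4) were high and share sequence with other genes, EPCAM was at 161, CDH1 at 32.9, KRT19 at 1.67 and GRHL2 was not among the genes tested. The 4 tested blood and endothelial markers had means between 1.33 and 31.2, with PTPRC at 3.81. The authors' mean need not cover these 18 libraries alone. For ANKRA2 it was 31568, whereas the recovered group means lay between 27.2 and 507. It served here for filters and mean classes, for a check of the recovered levels and for the markers above.

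Nutlin-3a changed 11374 genes in siRFXANK cells, 45.3% of the 25116 tested (Wald test on the derived log2 value, two-sided, Benjamini-Hochberg adjusted p under 0.05). All adjusted p-values below are of this kind. Of these, 5735 rose (22.8%) and 5639 fell (22.5%). Large rises were more numerous than large falls. 1584 genes rose and 969 fell by at least a log2 of 1, and 304 rose and 70 fell by at least a log2 of 3. Among genes with a mean of at least 100, CXCL14 alone fell by at least a log2 of 3. The other falls of that size were at lower means. The median of all genes was 0.01 on the log2 scale. Of 13103 genes with a mean of at least 100, 70.3% changed, and of 6660 genes with a mean under 10, 7.63% changed. The median standard error was 0.07 for the former genes, as in siControl cells. Among 15551 protein-coding genes, 4673 rose and 4644 fell. Among 1891 lincRNAs, 276 rose and 132 fell, and among 2011 antisense genes, 216 rose and 134 fell. Whether counting used the strand is not given in the sources used here, so reads of an antisense gene and its partner could not be told apart. A lower level in bulk RNA can be fewer cells of a kind or less RNA per cell, and these cannot be told apart.

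Most genes that changed in siRFXANK cells changed in the same direction in siControl cells. 7832 genes changed in the same direction in both, which is 68.9% of the genes changed in siRFXANK cells and 69.7% of the 11229 changed in siControl cells, and 350 changed in opposite directions. These responses share no library. Across the same 13103 genes, Pearson's r was 0.877 and Spearman's rho 0.793. The genes of a group come from the same libraries and are not independent replicates. The difference of the responses passed the test for 5334 genes (21.2%), with 2914 above the siControl response (11.6%) and 2420 below it (9.64%). For 8335 genes (33.2%), the 95% interval of the difference lay within a log2 of 0.5 on either side of 0. Of 3192 genes that changed in siRFXANK cells and did not pass in siControl cells, the difference itself passed for 1431. Against siANKRA2 cells, whose response also shares no library with siRFXANK cells, 7358 of 22738 genes differed (32.4%), with 4015 above (17.7%) and 3343 below (14.7%).

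**Figure D1:**
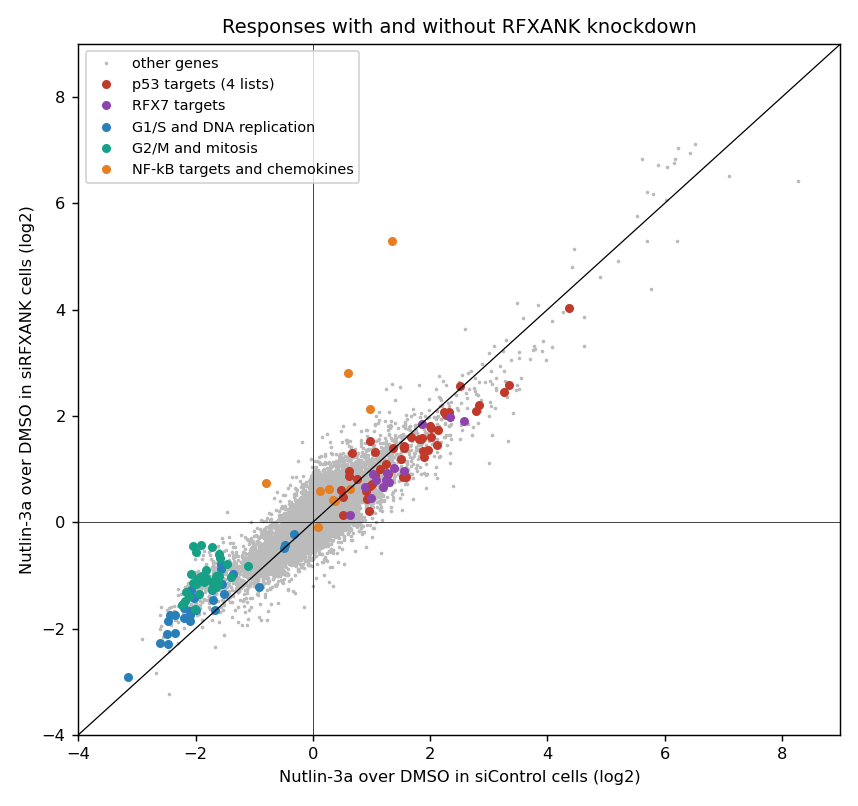
Each point is a gene with an authors' mean of at least 100, with the log2 ratio of Nutlin-3a over DMSO in siControl cells on the x axis and in siRFXANK cells on the y axis, and coloured points are members of the named lists. The line marks equal responses; most p53 and RFX7 targets lie below it at the upper right, the G2/M genes lie above it at the lower left, and CCL3 stands apart at 1.35 and 5.29.

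A trend with transcript length ran through the siRFXANK response and bears on the comparisons with other groups. Over 13100 genes whose mean reached 100, the median response was -0.18 in the first of 10 bins by transcript length (70 to 1113 bases) and 0.35 in the last (7600 to 34526 bases). In siControl cells the same medians were -0.02 and 0.06, and in siANKRA2 cells they were -0.01 and 0.00. In siRFXANK over siControl cells with DMSO the medians ran from 0.18 to -0.29, and they ran from 0.02 to -0.03 in Nutlin-3a. The ratio of siANKRA2 over siControl cells also ran with length, with medians of 0.14 and -0.05 under DMSO, and of 0.16 and -0.14 under Nutlin-3a. The difference between the siRFXANK and siControl responses had medians of -0.15 for the shortest and 0.26 for the longest transcripts. The part of RNA quality or library preparation in this trend was not tested. Values centred on genes of like length and GC content are given below beside several of the genes and lists whose calls they alter.

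**Figure D2:**
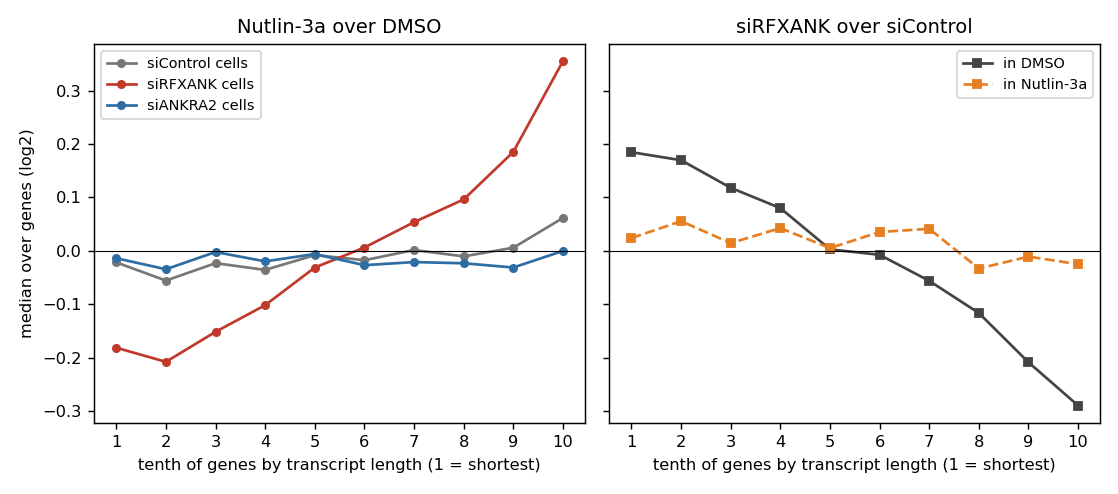
Median log2 value of the genes in 10 bins by length of the longest transcript, from shortest to longest, for the responses to Nutlin-3a in 3 cell groups (left) and for siRFXANK over siControl cells (right). The siRFXANK response climbs from -0.18 to 0.35 while the others stay between -0.06 and 0.06, and the slope in the right panel is steeper in DMSO.

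The p53 target genes rose in siRFXANK cells nearly as a whole. Of 50 tested targets in 4 lists, 46 rose and 0 fell, with a median log2 response of 1.35, against 0.01 over all genes tested. The median of the same genes was 1.56 in siControl cells and 0.91 in siANKRA2 cells. Compared gene by gene with siControl cells, the response was smaller for 28 and larger for 4, and 27 and 3 after centring for length and GC content. Compared with siANKRA2 cells, it was larger for 35 of 49 and smaller for 1 (ALDH4A1).

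**Figure D3:**
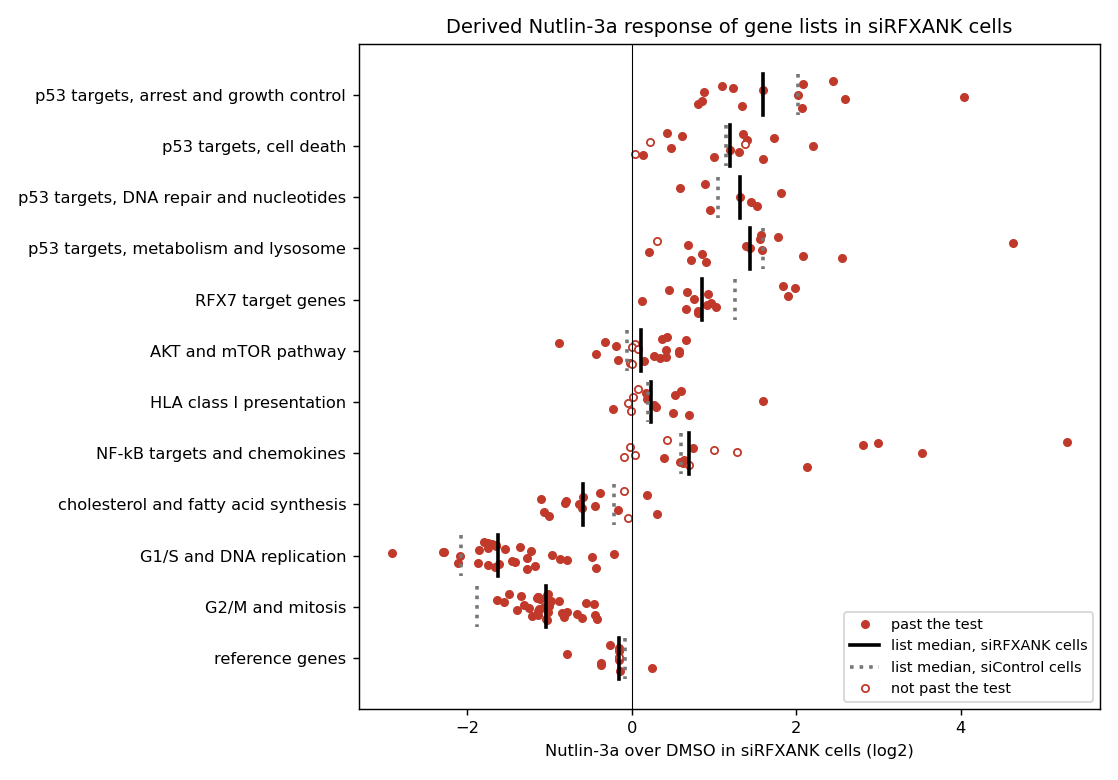
Each point is the log2 response to Nutlin-3a of a list member in siRFXANK cells, filled where the Benjamini-Hochberg adjusted p was under 0.05, with the list median in siRFXANK cells (solid bar) and siControl cells (dotted bar). The p53 and RFX7 target lists lie right of 0, both cell cycle lists lie left of 0, and the distance between the bars is widest for G2/M and mitosis, at -1.04 and -1.88.

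The feedback of p53 was seen in its inhibitors. MDM2, the ubiquitin ligase that degrades p53 (chr12:68808176-68850686, plus strand), went from 4604 to 38082 in siRFXANK cells, a rise of 3.05 (SE 0.05) or 8.27-fold. In siControl cells it went from 3293 to 34324 and in siANKRA2 cells from 3055 to 13963. The rise in siRFXANK cells was thus between those of the other cells, -0.33 on the log2 scale from siControl (Wald test, adjusted p = 1.99e-05) and 0.86 above siANKRA2 (Wald test, adjusted p = 1.41e-33). Of the 7 genes of this list 5 rose and 1 fell, where 70.3% of all genes with a mean of at least 100 changed. The median was 0.45. PPM1D, a phosphatase that dephosphorylates p53, rose by 0.93, and CCNG1, cyclin G1, by 0.68. COP1, a ubiquitin ligase, rose by 0.23. MDM4, a partner of MDM2, rose by 0.45, but its value after centring for length was 0.01. RCHY1 had a response of 0.00 (95% interval -0.12 to 0.13).

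All 13 arrest and growth control targets rose, with a median of 1.60 against 2.02 in siControl cells. CDKN1A (chr6:36676460-36687339, plus strand) rose from 5412 to 29489, by 2.45 (SE 0.04). Its siControl levels were 5634 and 54192, and its siANKRA2 levels were 23236 and 62137, so that the siANKRA2 cells started higher with DMSO than the others. The rise was smaller than in siControl cells by 0.82 (Wald test, adjusted p = 1.96e-44) and larger than in siANKRA2 cells by 1.03 (Wald test, adjusted p = 8.79e-74). GDF15, a secreted cytokine of the TGF-beta superfamily, rose most in the list, by 4.04 (SE 0.07), from 435 to 7144. TP53INP1, which promotes autophagy and cell death, rose by 2.59, BTG2, an antiproliferative regulator of mRNA decay, by 2.09, and ZMAT3, an RNA-binding protein, by 2.02. The smallest rises of the list were those of PML (0.81), SFN (0.86), which encodes 14-3-3 sigma, and E2F7 (0.87), a repressor of E2F targets. E2F7 alone in this list rose more than in siControl cells, by 0.26 (Wald test, adjusted p = 0.0105), and the difference was 0.11 after centring for length and GC content and no longer passed.

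Of the 17 listed cell death targets 15 were tested and 12 rose, with a median of 1.20 against 1.15 in siControl cells. Gene by gene the median difference was -0.31, with 5 members below their siControl response and 1 above it. After centring for length and GC content 11 rose, and 6 were below and 2 above. TP53I3, a quinone oxidoreductase, rose most, by 2.20, from 1714 to 7893. The death receptor FAS, whose p53 site is printed above, rose by 1.74, from 1221 to 4066, and the receptors EDA2R and TNFRSF10B by 1.60 and 1.40. BBC3 (PUMA), an activator of BAX, rose by 1.36 and BAX itself by 0.43, both less than in siControl cells, by 0.61 and 0.50 (Wald test, adjusted p = 1.21e-10 and 4.54e-09). APAF1, the scaffold of the apoptosome, rose by 1.31 and was above its siControl response by 0.64 (Wald test, adjusted p = 2.20e-06). PERP rose least, by 0.14, and its value after centring, 0.11, did not pass. TNFRSF10C, TNFRSF10D and TP53AIP1 did not pass, and their levels with DMSO were 31.6, 5.21 and 4.50.

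All 7 targets in DNA repair and nucleotide supply rose, with a median of 1.32 against 1.05 in siControl cells. Gene by gene, however, 4 rose less than in siControl cells and 2 more, with a median difference of -0.17. RRM2B, the p53-inducible subunit of ribonucleotide reductase, rose from 7508 to 26315, by 1.81 (SE 0.04). ASCC3, a helicase, and POLH, the translesion polymerase eta, rose by 1.52 and 1.32, more than in siControl cells by 0.54 and 0.26 (Wald test, adjusted p = 4.90e-06 and 0.00442). After centring for length and GC content the difference of ASCC3, 0.22, did not pass. FDXR, ferredoxin reductase, rose by 1.45, less than in siControl cells by 0.66 (Wald test, adjusted p = 2.68e-11). DDB2, which recognises ultraviolet damage, rose least, by 0.59.

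Of 15 targets in metabolism and lysosome 14 rose, with a median of 1.43 against 1.59 in siControl cells. GLS2, a mitochondrial glutaminase, was at 1.34 with DMSO, under the floor of 3, and at 33.3 with Nutlin-3a, so it was at least 11-fold higher. ACER2, a ceramidase of the Golgi, rose by 2.56 (SE 0.13) and CMBL by 2.08. The sestrins SESN1 and SESN2, which restrain mTORC1, rose by 1.78 and 1.56, and the AMPK subunit genes PRKAB2 and PRKAB1 by 1.39 and 0.68. PHLDA3, an inhibitor of AKT, and ALDH4A1, an enzyme of proline breakdown, rose by 0.86 and 0.21, less than in siControl cells by 0.73 and 0.75 (Wald test, adjusted p = 3.82e-11 and 1.36e-10). ALDH4A1 shares 43.7% of its sequence with other transcripts and TIGAR, which rose by 1.57, shares 49.0%, so the count of either is uncertain. SCO2, with 86.1% shared sequence, was at 8.55 and 10.6 and did not pass.

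**Figure D4:**
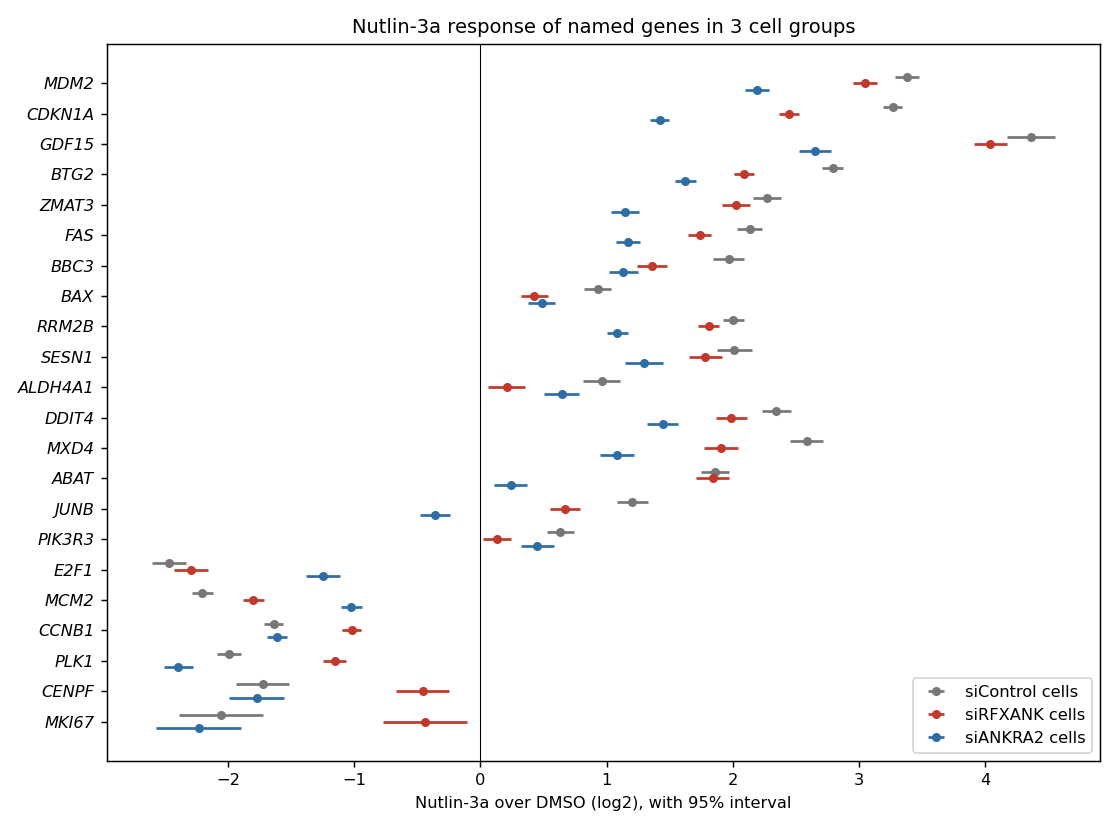
Log2 ratio of Nutlin-3a over DMSO with its 95% interval for 22 named genes in siControl (grey), siRFXANK (red) and siANKRA2 cells (blue). The p53 targets MDM2, CDKN1A and GDF15 sit between the other cell groups in siRFXANK cells, and the mitotic genes CENPF and MKI67 lie nearer to 0 in siRFXANK cells than in the others, at -0.46 and -0.44.

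All 14 RFX7 target genes rose in siRFXANK cells, with a median of 0.86. The median was 1.26 in siControl cells and 0.47 in siANKRA2 cells, and 11 members rose less than in siControl cells and 0 more. Against siANKRA2 cells 11 rose more and 1 less. DDIT4 (chr10:72273920-72276036, plus strand), an inhibitor of mTORC1, was at 589 with DMSO and 2338 with Nutlin-3a, a rise of 1.99 (SE 0.06). Its siControl levels were 788 and 4000.0, and its siANKRA2 levels 709 and 1928. The rise was smaller than in siControl cells by 0.36 (Wald test, adjusted p = 3.60e-04) and larger than in siANKRA2 cells by 0.55 (Wald test, adjusted p = 6.78e-09). MXD4, an antagonist of MYC, rose by 1.90, 0.68 less than in siControl cells (Wald test, adjusted p = 9.90e-11), from 459 to 1717.

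ABAT, the enzyme that breaks down GABA, had the widest distance from siANKRA2 cells among the RFX7 targets. It rose by 1.84 in siRFXANK cells, from 357 to 1278, against 1.86 in siControl and 0.24 in siANKRA2 cells. The difference from siControl cells was -0.02 (95% interval -0.19 to 0.15) and the difference from siANKRA2 cells 1.60 (Wald test, adjusted p = 2.39e-62). JUNB, a subunit of AP-1, rose by 0.67, and its siControl and siANKRA2 values were 1.20 and -0.36. PDCD4, an inhibitor of translation, KLHL24 and TOB1, an antiproliferative protein, rose by 0.75, 0.93 and 0.66. SESN3, another sestrin, rose by 1.02, and its difference from siControl cells, -0.36, did not pass. IP6K2, an inositol phosphate kinase, rose by 0.45. PIK3R3, a regulatory subunit of PI3-kinase, rose least, by 0.13 (95% interval 0.02 to 0.24), and its sign turned after centring for length and GC content.

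The factors that RFXANK works with changed in different directions. Of 8 RFX factors and partners, 3 rose and 3 fell, with a median of 0.11, where 70.3% of all genes with a mean of at least 100 changed. RFX5, which is also on the RFX7 target list, rose by 0.91 (SE 0.04), from 2563 to 4819, with a difference from siControl cells of -0.11 (95% interval -0.23 to 0.00). RFX7 rose by 0.91 (SE 0.10), from 971 to 1820.3, and was above its siControl response by 0.47 (Wald test, adjusted p = 0.00725). Its longest transcript has 10426 bases, and after centring the difference was 0.10 and did not pass. ANKRA2 rose by 1.68 (SE 0.08), from 158 to 507. RFXAP, RFX2 and RFX1 fell by 0.66, 0.55 and 0.22, and RFX3 had a value of 0.22 and did not pass.

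HLA class II genes, the targets of the RFX5 complex, were near the floor in these cells. Of 11 listed genes 10 were tested and 4 rose, and of these HLA-DQB1 alone had a mean of at least 10. It went from 72.9 to 292, by 2.004 (SE 0.14), close to 1.92 in siControl cells, with a difference of 0.09 (95% interval -0.28 to 0.45). The others that rose, CIITA, HLA-DRB1 and CD74, had levels of at most 9.09. HLA-DPA1, at 17.6 and 20.2, did not pass.

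Of 14 HLA class I presentation genes 9 rose and 1 fell, where 70.3% of all genes with a mean of at least 100 changed in either direction. The median was 0.23 against 0.20 in siControl cells, and 3 were above their siControl response. After centring for length and GC content 11 rose and 2 fell, and 6 were above. TAP1, a subunit of the peptide transporter, rose most, by 1.59 (SE 0.05), from 719 to 2165. ERAP2 and ERAP1, peptidases that trim peptides in the endoplasmic reticulum, rose by 0.70 and 0.50, and HLA-B and HLA-E by 0.59 and 0.53. PSMB9, a subunit of the immunoproteasome, fell by 0.23. B2M, the light chain of class I molecules, rose by 0.19.

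Genes of DNA replication fell throughout. All 30 G1/S and DNA replication genes fell, with a median of -1.63 against -2.08 in siControl cells and -1.11 in siANKRA2 cells. E2F2 and E2F1, the transcription factors that drive S phase entry and whose own promoters carry the E2F motif printed above, fell most in the list, followed by CCNE2. E2F2 went from 754 to 100.4, a fall of 2.91 (SE 0.10), and E2F1 from 3076 to 628, a fall of 2.29 (SE 0.07). CCNE2, cyclin E2, fell by 2.28, from 511 to 105. For these 3 genes, the difference from siControl cells did not pass, with 95% intervals of -0.02 to 0.50, -0.02 to 0.36 and -0.05 to 0.70.

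The replicative helicase fell as a set. Its subunits MCM2 to MCM7 fell by between 1.36 (MCM7) and 1.80 (MCM2), and MCM2 went from 9283 to 2668. GINS2 and CDC45, which complete the active helicase, fell by 2.11 and 1.87, and the loading factors CDT1 and CDC6 by 1.86 and 1.55. RRM2, the S phase subunit of ribonucleotide reductase, fell by 2.09. The smallest falls were those of PCNA (0.22), which is also a direct p53 target, the ligase gene LIG1 (0.43) and TYMS (0.48), thymidylate synthase. PCNA went from 7729 to 6633, and its value after centring for length and GC content, -0.06, did not pass.

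Compared with siControl cells, 22 of the 30 G1/S genes fell less and 1, CCNE1, fell more, with a median difference of 0.38. RFC3, a subunit of the clamp loader, and POLE, the catalytic subunit of polymerase epsilon, had the widest differences, 0.80 and 0.78 (Wald test, adjusted p = 9.94e-23 and 1.35e-13). CCNE1, cyclin E1, fell by 1.22 in siRFXANK cells against -0.91 in siControl cells. After centring for length and GC content, 25 fell less and 0 more. Compared with siANKRA2 cells, 23 fell further and 1, POLE, fell less. E2F1 fell further than in siANKRA2 cells by 1.05 (Wald test, adjusted p = 5.30e-25) and CDT1 by 0.91 (Wald test, adjusted p = 2.07e-28).

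Genes of mitosis fell as well, and less than in both other cell groups. All 35 G2/M and mitosis genes fell, with a median of -1.04 against -1.88 in siControl cells and -1.60 in siANKRA2 cells. All 35 fell less than in siControl cells, and the count was 35 after centring for length and GC content. Against siANKRA2 cells 27 fell less and 1, FOXM1, fell further. The median difference from siControl cells was thus 0.77 for the G2/M genes and 0.38 for the G1/S genes.

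AURKB, the kinase of the chromosomal passenger complex, and CENPA, the histone of centromeres, fell most, by 1.64 and 1.55. CCNA2, cyclin A2, fell by 1.49, from 5212 to 1859.8. CCNB1, cyclin B1, fell from 10222 to 5044, by 1.02 (SE 0.04), and its siControl levels were 10904 and 3505. The DMSO levels of CCNB1 lay closer together than the Nutlin-3a levels, and the latter was higher in siRFXANK cells. PLK1 fell from 7708 to 3465, by 1.15, and its siControl levels were 7461 and 1878. PLK1, a kinase of mitotic entry, differed from siControl cells by 0.84 (Wald test, adjusted p = 9.34e-33) and from siANKRA2 cells by 1.24 (Wald test, adjusted p = 2.82e-59). CCNB2, with the same TTTGAA position, differed by 0.36 (Wald test, adjusted p = 1.21e-05) from siControl cells.

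The smallest falls were those of ASPM, MKI67, CENPF and CENPE, and the longest transcripts of these genes have between 8612 and 12678 bases. MKI67, the proliferation antigen Ki-67, went from 8047 to 5928 in siRFXANK cells, by -0.44 (SE 0.17). It went from 11549 to 2784 in siControl and from 4890.2 to 1041 in siANKRA2 cells, and was the mitotic gene with the widest difference from siControl, 1.61 (Wald test, adjusted p = 9.94e-10). CENPF and CENPE, proteins of the kinetochore, fell by 0.46 and 0.56, and differed from siControl cells by 1.27 and 1.43 (Wald test, adjusted p = 1.51e-14 and 1.45e-12). ASPM, a spindle pole protein, fell by 0.42 and differed by 1.48 (Wald test, adjusted p = 4.10e-10). After centring for length and GC content, these differences were 1.30 for MKI67, 0.90 for CENPF, 1.15 for CENPE and 1.15 for ASPM, and all passed the test. PRC1, with 64.5% of its sequence shared with other transcripts, is uncertain.

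The list of the DREAM complex and pocket proteins had a smaller median fall than both cell cycle lists. Of 13 genes of the DREAM complex and pocket proteins, 10 fell and 2 rose, where 70.3% of all genes with a mean of at least 100 changed. The median was -0.71. MYBL2 (B-Myb), which replaces the repressive partners of the complex in cycling cells, fell by 1.62 (SE 0.03), from 11426 to 3716. The pocket protein genes RBL1 (p107), RBL2 (p130) and RB1 had values of -0.997, 0.39 and 0.27, all past the test. LIN9 and LIN54, of the core of the complex, fell by 1.001 and 0.67, and E2F4 by 0.16, with -0.02 after centring, which did not pass. LIN37 (0.26) did not pass.

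Of 20 listed targets of NF-kB, the transcription factor of inflammatory signalling, 17 were tested, and 10 rose and 0 fell. Among all genes with a mean of at least 100, 70.3% changed in either direction. The list median was 0.70 against 0.59 in siControl and -0.33 in siANKRA2 cells. Against siControl cells 7 were above and 0 below, where 11.6% and 9.64% of all genes tested were. Against siANKRA2 cells 13 of 16 were above and 0 below, where 17.7% and 14.7% of all genes tested were. CCL3, a chemokine of macrophages (chr17:36088256-36090169, minus strand), went from 13.0 to 509 in siRFXANK cells, from 4.33 to 11.1 in siControl and from 225 to 770.2 in siANKRA2 cells. With DMSO the siRFXANK level was thus above both siControl levels, which were low, and far below the siANKRA2 levels. With Nutlin-3a it was nearer to the siANKRA2 level than to the siControl level. The rise was 5.29 (SE 0.26, 95% interval 4.77 to 5.81), 3.93 above the siControl response (Wald test, adjusted p = 1.03e-10) and 3.51 above the siANKRA2 response (Wald test, adjusted p = 6.51e-30). CCL3 shares 21.5% of its sequence with other transcripts.

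CCL20, a chemokine that draws cells with CCR6, went from 16.7 to 117 in siRFXANK cells, and its siControl levels were 21.4 and 32.3. In siANKRA2 cells it was at 690.3 and 533, above all siRFXANK levels. The rise of 2.81 (SE 0.25) was 2.21 above siControl (Wald test, adjusted p = 6.50e-08). CXCL8 (interleukin-8), which draws neutrophils, rose by 0.75 (SE 0.23), from 32.0 to 53.7, and fell from 90.5 to 51.9 in siControl and from 687 to 317 in siANKRA2 cells. Its difference from siControl was 1.55 (Wald test, adjusted p = 8.28e-06). IL1A, the cytokine interleukin-1 alpha, and CCL5 rose by 3.53 and 2.99, and their levels with DMSO were as low as 4.68 and 5.75.

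BIRC3, a ubiquitin ligase of TNF receptor signalling, rose at far higher counts than the chemokines. It went from 1374 to 6042, by 2.14 (SE 0.06), 1.17 above siControl (Wald test, adjusted p = 4.13e-35), and in siANKRA2 cells from 2331 to 1692. TRAF1, an adaptor of the same receptors that is on no list, had a like course, from 391 to 2226, with a rise of 2.51 against 1.25 in siControl and -0.20 in siANKRA2 cells. The subunit genes NFKB1 and NFKB2 rose by 0.58 and 0.63, above siControl by 0.47 and 0.35 (Wald test, adjusted p = 6.94e-09 and 2.61e-06). RELB and TNFAIP3 rose by 0.63 and 0.39, with differences from siControl of 0.00 and 0.01 that did not pass. NFKBIA, the inhibitor that NF-kB induces, had a value of -0.09 (95% interval -0.20 to 0.01) and did not pass. IL6, TNF, CXCL3 and CXCL10 did not pass either, with levels of at most 10.7, nor did CCL2 and ICAM1. The motif GGACTTTCC, part of a kB site, was present in 3 of 23 promoter entries of the list, those of TNFAIP3, NFKB2 and NFKBIA, and in 0.333% of all entries.

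**Figure D5:**
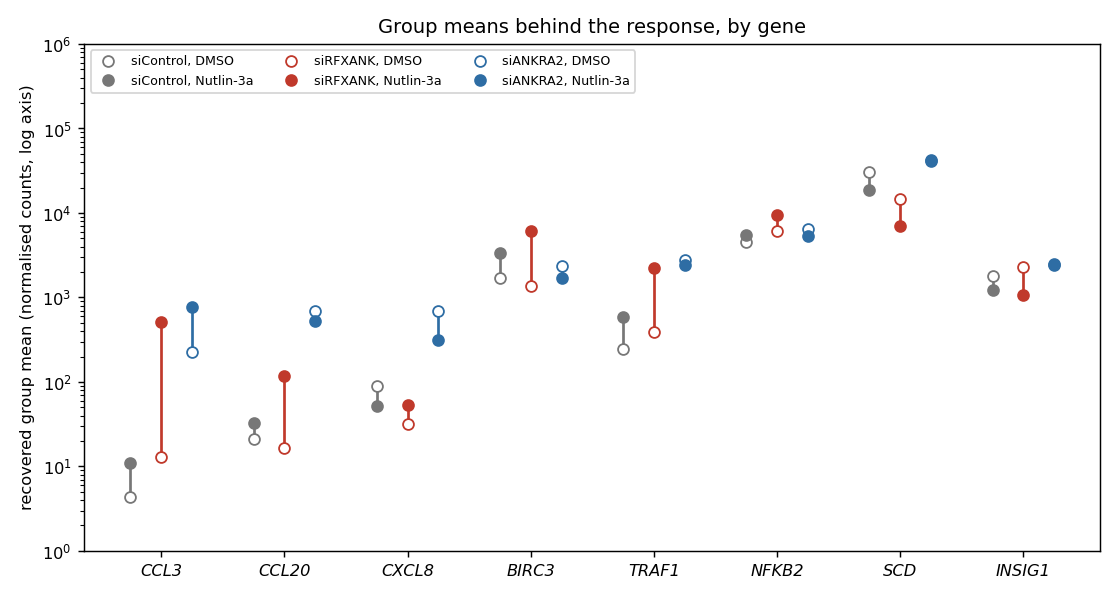
Recovered mean of each group of 3 samples, in normalised counts on a log axis, for NF-kB targets and lipid synthesis genes, with DMSO (open) and Nutlin-3a (filled) joined by a line. CCL3 climbs from 13.0 to 509 and BIRC3 from 1374 to 6042 in siRFXANK cells, and SCD drops from 14553 to 6956.

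Interferon-stimulated genes were split. Of 15 listed genes 14 were tested, 8 rose and 1 fell, where 70.3% of all genes with a mean of at least 100 changed. The median was 0.36 against 0.55 in siControl cells. The median difference gene by gene was 0.05, with 3 above the siControl response and 1 below it, and after centring for length and GC content 7 rose and 2 fell. IFIT2 and IFIT3, antiviral proteins, rose by 2.58 and 2.19, and IFIT2 went from 80.1 to 481. DDX58, the RNA sensor RIG-I, rose by 1.15, 0.51 above siControl cells (Wald test, adjusted p = 1.41e-05). STAT2, a transducer of interferon signals, rose by 0.82, and OAS1 fell by 0.80. IFIT1, MX1, OAS2, OAS3 and IRF9 did not pass. IRF9 shares 100% of its sequence with other transcripts, so its count is uncertain.

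Of 15 genes of cholesterol and fatty acid synthesis 11 fell and 2 rose, where 70.3% of all genes with a mean of at least 100 changed. The median was -0.60 against -0.22 in siControl and 0.04 in siANKRA2 cells. Against siControl cells 11 were below and 2 above, where 9.64% and 11.6% of all genes tested were, with a median difference of -0.36. Against siANKRA2 cells 13 were below and 1 above, where 14.7% and 17.7% of all genes tested were. INSIG1, which holds SREBP in the endoplasmic reticulum, fell from 2293 to 1064, by 1.11 (SE 0.05), and was at 1777 and 1227 in siControl and 2401 and 2507 in siANKRA2 cells. The siANKRA2 response was 0.06 on the log2 scale. SCD, which desaturates fatty acids, fell from 14553 to 6956, by 1.06, 0.38 further than in siControl cells (Wald test, adjusted p = 1.86e-08).

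SREBF1, which encodes the factor that drives fatty acid synthesis, fell by 1.01, and SREBF2, its partner for cholesterol synthesis, had a value of -0.05 and did not pass. Along the cholesterol pathway, IDI1, MVD, FDFT1, SQLE and DHCR7 fell by between 0.60 and 0.81. FDFT1, squalene synthase, had a difference from siControl of -0.57 (Wald test, adjusted p = 6.97e-28). ACACA, acetyl-CoA carboxylase, rose by 0.31 and was at -0.14 after centring for length and GC content. With that centring 13 genes of the list fell and 0 rose.

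Counts in the AKT and mTOR pathway changed when values were centred on genes of like length. Of 20 genes 10 rose and 5 fell, where 70.3% of all genes with a mean of at least 100 changed in either direction. The median was 0.11, and after centring for length and GC content 7 rose and 7 fell. Against siControl cells 11 were above and 2 below, and after centring 0 were above and 3 below. The kinase subunits RICTOR, MTOR and RPTOR rose by 0.66, 0.43 and 0.37, and MTOR was at 0.09 after centring and did not pass. TSC1 and TSC2, which together inhibit mTORC1, both rose by 0.58. RHEB, the activator of mTORC1, fell by 0.44, MLST8 by 0.33 and AKT1 by 0.19. DEPTOR, an inhibitor of mTOR, fell by 0.89, from 38.6 to 20.8. ASS1, argininosuccinate synthase, had a value of 0.01 (95% interval -0.14 to 0.15) against 0.65 in siControl cells, a difference of -0.64 (Wald test, adjusted p = 1.42e-08).

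The unfolded protein and amino acid response was mixed, with 6 of 12 genes risen and 4 fallen and a median of 0.08. Among all genes with a mean of at least 100, 70.3% changed. ATF3 and DDIT3, transcription factors of the stress response, rose by 0.68 and 0.52. PHGDH and PSAT1, of serine synthesis, fell by 0.80 and 0.48. SLC7A11, the cystine transporter that p53 represses, rose by 0.45 (SE 0.10), from 841 to 1147, and fell from 874 to 551 in siControl cells. Its difference was 1.11 (Wald test, adjusted p = 2.27e-12), and 0.80 after centring for length and GC content, where the rise itself, 0.13, did not pass. ATF4 fell by 0.10 and was at 0.04 after that centring.

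Early embryo genes were among the largest rises. Their list was chosen with earlier results of these data known, so its rise is a description and not a test. Of 11 listed early embryo genes 9 were tested and 8 rose, with a median of 5.81 against 6.13 in siControl and 4.95 in siANKRA2 cells. For none of the 8 did the difference from siControl cells pass the test. Some of the genes named next are not list members and were named for being among the largest rises. ZSCAN4, a zinc finger protein of genome activation in the embryo (chr19:57668935-57679152, plus strand), went from 5.94 to 785, by 7.05 (SE 0.35), against 6.24 and 5.44. H3.Y, a primate histone variant that is not on this list, went from 25.2 to 3479, by 7.11 (SE 0.18). PRAMEF12 rose by 6.17, and TRIM43, TRIM48, TRIM49B and TRIM49C by between 6.21 and 6.83. These TRIM genes share between 57.3% and 90.0% of their sequence with other transcripts, so reads could be split among copies and single members are uncertain. MBD3L2, PRAMEF1, PRAMEF2 and CCNA1 were at or under 3 with DMSO and were at least 30.6-, 7.2-, 12.2- and 2.2-fold higher with Nutlin-3a. KHDC1L was at 20.6 and 17.6 and did not pass.

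The other genes among the 10 largest rises with a mean of at least 100 were AC233724.15, AC233724.10, AC233724.6, AC106774.2 and LCE1C, with rises between 6.43 and 6.94. The 10 largest falls among genes with a mean of at least 100 were those of CXCL14, E2F2, RNF43, MXD3, PALM3, E2F1, CCNE2, CDKN2C, FAM111B and C1QTNF2. CXCL14, a chemokine of epithelia, fell most of these, by 3.23 (SE 0.22), from 1298 to 139, and from 1912 to 347 in siControl cells. RNF43, which removes Wnt receptors, fell by 2.84 in siRFXANK cells and had values of -2.68 in siControl and -0.17 in siANKRA2 cells, but shares 76.4% of its sequence with other transcripts. CDKN2C, which encodes the CDK inhibitor p18, fell by 2.28, and MXD3 by 2.42.

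Among genes with a mean of at least 100, CCL3, CCL20, RGPD3, ROR1, MKI67 and CXCL8 stood furthest above the siControl response. ROR1, a receptor of Wnt5a, was at 349 and 399 in siRFXANK and 936 and 340.1 in siControl cells, a difference of 1.66 (Wald test, adjusted p = 4.53e-17). The siRFXANK cells with DMSO were already near the level of siControl cells with Nutlin-3a. RGPD3 (1.68) shares 89.3% of its sequence. Furthest below were ODAPH, DEPP1, RAB7B, KIAA1211L, ACKR3 and PTP4A3. DEPP1, a target of FOXO factors, went from 386 to 1106 in siRFXANK and from 139 to 1397 in siControl cells, a difference of -1.81 (Wald test, adjusted p = 3.85e-30). PTP4A3, a phosphatase, fell from 377 to 124 and was at 203 and 183 in siControl cells, a difference of -1.45 (Wald test, adjusted p = 1.29e-15).

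Of the 350 genes that changed in opposite directions, 337 had a mean of at least 100, and all 350 passed the test of the difference. The leading 6 by the smaller of the responses were CXCL8, RAB7B, WDR82P2, AC009506.1, DACT1 and NR4A2. DACT1, an inhibitor of Wnt signalling, fell from 566 to 326 in siRFXANK cells and rose from 308 to 446 in siControl cells, a difference of -1.33 (Wald test, adjusted p = 9.82e-26). RAB7B, a GTPase of late endosomes, fell from 247 to 165 and rose from 103 to 231. NR4A2, a nuclear receptor of the immediate early response, rose from 79.3 to 114 and fell from 83.0 to 58.1.

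Furthest above the siANKRA2 response stood CCL3, AC004817.3, CCL20, ESM1, AC112721.2 and TRAF1. ESM1, a proteoglycan secreted by endothelium, went from 84.2 to 791 in siRFXANK and from 38.0 to 359 in siControl cells, but was at 3694 and 3948 in siANKRA2 cells. It was thus high in both siANKRA2 groups and rose in the others. Furthest below were RNF43, C1QTNF2, EDN2, OLFML3, SOCS1 and GPER1, with differences between -2.67 and -1.59. EDN2, endothelin-2, fell from 312 to 143 in siRFXANK cells and was at 49.4 and 77.6 in siANKRA2 cells.

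The markers of cell type and the reference genes give the scale of small changes. Of 10 reference genes 8 fell and 1 rose, where 70.3% of all genes with a mean of at least 100 changed. The median was -0.16 against -0.08 in siControl cells, and 5 fell after centring for length and GC content. GAPDH and ACTB fell by 0.16 and 0.27, and GAPDH was at 0.03 after centring. HPRT1, of purine salvage, fell by 0.79. Of 10 tested osteoblast and mesenchymal markers 3 rose and 3 fell, and 2 rose and 5 fell after centring. Over all genes tested 22.8% rose and 22.5% fell, and of those with a mean of at least 100, 70.3% changed. ALPL, alkaline phosphatase, rose from 32.3 to 96.1 and FN1, fibronectin, from 4231 to 10591, by 1.57 and 1.32, and COL1A1 rose by 0.10 and was at -0.10 after centring. VIM, SPP1 and THY1 fell, by at most 0.66. Of 7 tested epithelial markers 2 fell, EPCAM by 0.94 and KRT8 by 0.16, and of 4 blood and endothelial markers VWF fell, from 95.2 to 47.5.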

How the data were processed

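RNA-seq libraries of 18 U2OS samples in 6 groups of 3 were made from polyadenylated RNA. Groups were taken from the sample labels. The authors deposited 6 tables of comparisons between groups and no values per library, so depth is unknown and no intervals for counting error were computed. Per the labels, the submitters' processing notes name bcl2fastq 2.20.0.422, Trimmomatic 0.39, FastQC 0.11.9, cutadapt 2.10, SAMtools 1.10, Picard, featureCounts 1.6.5 and DESeq2 1.20.0, with the build hg38. The aligner, the annotation and the use of strand are not given in the sources used here. Columns used were these: the authors' mean normalised count (a signal value), the authors' log2 fold change and its deposited standard error on the log2 scale. The authors' test statistics, p-values and adjusted p-values were not used. The paper given with the series does not describe this experiment.

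The derived response is siControl Nutlin-3a over DMSO, plus siRFXANK over siControl in Nutlin-3a, minus siRFXANK over siControl in DMSO, with a variance of the squared standard errors of the siRFXANK comparisons minus that of the siControl comparison. For siANKRA2, whose response was deposited, the same arithmetic returned it over 22738 genes to within 1.4e-14 (log2). Responses and their differences from siControl and siANKRA2 cells were tested per gene (Wald test, normal distribution, two-sided) and their p-values adjusted over all genes tested (Benjamini-Hochberg), at 0.05. On simulated counts of 25116 genes, 119 of 200 genes with a 2-fold siRFXANK response were recovered with 5 false calls, and 103 of 103 among those with a mean of at least 100. The simulated standard errors were computed from the same spread that generated the counts. Only those 200 genes changed, whereas 45.3% were called in the data. The simulation thus checks the arithmetic and does not give the error rate in the data. Group means were recovered from fold changes and standard errors under a negative binomial variance, and means of at most 3 were treated as a floor. Compared with levels scaled to the authors' mean, the recovered siRFXANK levels had a median ratio of 1.01 (quartiles 0.886 and 1.16, 13101 genes).

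Lengths, GC content and positions came from GENCODE 29 (99.8% of genes matched), and shared sequence was counted in stretches of 31 bases of the longest transcript. Centring subtracted the median of genes of like length and then of like GC content (20 bins each). Python 3.11.15, numpy 2.4.6, scipy 1.17.1 and pandas 2.3.3 were used. The members and the 22 gene lists were chosen with earlier results of these data known. Genes were named by a rule: in each list up to 5 members past the threshold with the largest and smallest values, any against the list's direction and those needed by role, the 10 largest rises and falls, the 6 largest differences each way and the 6 leading genes with opposite directions (mean of at least 100), RFXANK and ANKRA2. Alternatives were stricter thresholds, minimum means, a t distribution with 12 degrees of freedom, centring, summed squared standard errors and the opposite sign. Some genes of the lists are counted but not reported here by name.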

Additional observations from a re-analysis of the deposited data

Results flagged for a closer look

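The genes named for the widest differences between the responses of siRFXANK and siControl cells, and for responses in opposite directions, passed the Wald test of the difference itself over 25116 genes. They are given as the log2 response in siRFXANK cells minus that in siControl cells. Above the siControl response stood CCL3 at 3.93, CCL20 at 2.21, RGPD3 at 1.68, ROR1 at 1.66, MKI67 at 1.61 and CXCL8 at 1.55. Below it stood ODAPH at -1.88, DEPP1 at -1.81, RAB7B at -1.75, KIAA1211L at -1.71, ACKR3 at -1.54 and PTP4A3 at -1.45. With opposite directions, WDR82P2 differed by 1.19, NR4A2 by 1.03, AC009506.1 by -1.27 and DACT1 by -1.33. CCL3 and CCL20 were at 13.0 and 16.7 normalised counts in siRFXANK cells with DMSO, and ODAPH at 6.01, so their differences rest on low counts. Groups of 3 samples, with no value per library, could not be searched for samples far from the others.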

How the results depend on the processing

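No paired analysis was possible because the tables hold comparisons between groups and no values per library, and for the same reason no replicate could be left out. With a log2 value of at least 1 required as well, 2553 genes remained in the siRFXANK response, 388 in the difference from siControl and 984 in the difference from siANKRA2 cells, and the share of rises in the response was 62.0% against 50.4%. With the squared standard errors of the 3 tables summed, which counts the siControl spread although it drops out, 7081 genes passed. Under the other alternatives the response held between 9483 and 11291 genes, the difference from siControl between 3588 (t distribution) and 5664 and the difference from siANKRA2 between 5591 and 7518, and reading the siRFXANK tables with the opposite sign gave 15635 genes for the response. That reading, which also turned 60 of 274 named genes, left the wider gap to the deposited standard errors.

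Of 274 named genes past the test, 264 passed at 0.01, 268 with the t distribution, 273 after centring on the median gene, 232 with summed squared standard errors and 137 with a log2 value of at least 1 required. The centring for length and GC content was chosen after seeing the data. It left 256 past the test in the same direction, ended the call for 12 and turned the sign of 6: PIK3R3 (-0.00595), ACACA (-0.14), ATF4 (0.0413), GAPDH (0.0309), ACTR10 (0.0161) and COL1A1 (-0.10). The median of genes with a mean of at least 100 was -0.02 for the response and 0.01 for both differences. Depth per library is unknown, and genes with a mean under 10 passed in 7.63% of cases, so a gene of low counts that did not pass is not shown to be unchanged.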
